A study of Drosophila melanogaster with 8 samples.

Results

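The cytosolic ribosome of Drosophila is built from a large and a small subunit, each a folded ribosomal RNA covered with ribosomal proteins. Most ribosomal proteins are encoded by a single gene, and loss of 1 copy of many of these genes slows fly development and thins the bristles, the Minute phenotype. Several have a duplicated second gene, and for some of these duplicates, such as RpS19b, use in the germline is known. In the larval brain, neuroblasts act as stem cells that grow and divide repeatedly, while the neurons they give rise to have left the cell cycle.

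The genes described here are those whose symbol starts with RpL, RpS or RpLP followed by a number, plus sta, sop, oho23B and Qm, the older names for genes of ribosomal proteins. They came to 88 of the 14210 genes in the tables, 50 of the large and 38 of the small subunit. Of the 4 older names sta has a row, and the other 3 have none, because the tables call these genes RpS2, RpS21 and RpL10. The RNA came from wild-type larval brains late in the third instar, from animals that expressed a nuclear green fluorescent protein, stingerGFP, under the control of asense-Gal4. Eggs were laid for 24 h, the larvae grew for 5 further days at 25 degrees, and the neuroblasts and their differentiated daughter cells were separated by fluorescence-activated cell sorting. Both cell types carry the same transgenes and the same driver, and asense is a gene of the neuroblasts. The 8 polyA-enriched libraries are 3 biological replicates of neuroblasts and 2 of neurons, of which neuroblast 2, neuroblast 3 and neuron 1 were sequenced as a pair of technical replicates each. Nothing in the labels says whether the replicates came from separate dissections, so the p-values measure the spread between these samples only.

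The cell types matched their labels by marker genes. All 4 neuroblast markers were higher in neuroblasts and all 3 neuron markers higher in neurons, at an adjusted p under 0.05 by limma. Levels are given in FPKM, the number of fragments divided by the length of the transcript and by the mapped fragments of the library. Among the neuroblast markers ase differed least, at 105, 58.1 and 69.4 FPKM in neuroblasts and 21.3 and 46.1 FPKM in neurons. With libraries scaled to equal FPKM sums, 3 of the 4 neuroblast markers and all 3 neuron markers were called. The summed FPKM of the neuron markers was 85.5, 47.2 and 10.5 in neuroblasts 1, 2 and 3, against 467 and 630 in neurons 1 and 2. Of 5 glial markers 4 were higher in neurons. The sums of the 5 were 84.9 to 157 FPKM in neuroblasts and 66.9 to 98.6 FPKM in neurons. Most of each sum came from nrv2, which was not called. Its level was 123 ± 36.4 FPKM in neuroblasts (SD, n = 3) and 66.7 ± 20.6 FPKM in neurons (SD, n = 2). The gene repo, which defines glia, was at 0.597 ± 0.429 FPKM in neuroblasts (SD, n = 3) and 8.81 ± 1.19 FPKM in neurons (SD, n = 2). The fragments behind the genes with a single transcript came to between 953228 in neuron 2 and 16282423 in a library of neuroblast 3. The FPKM of all genes summed to 551675, 456739 and 747038 in the neuroblast replicates and to 325851 and 343514 in the neurons, so a fold change in FPKM also depends on whether the libraries are rescaled. In pools of sorted cells, fewer cells of a type and less RNA per cell cannot be told apart.

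The ribosomal protein genes took about 1.88 times as large a share of all FPKM in neuroblasts as in neurons. They held 27.1%, 27.8% and 29.6% of the FPKM in neuroblasts 1, 2 and 3, and 15.2% and 14.8% in neurons 1 and 2. The groups did not overlap, and the means were 28.2% ± 1.32 (SD, n = 3) and 15.0% ± 0.239 (SD, n = 2). An exact two-sided permutation test over the 5 replicates gave p = 0.1, the smallest value that 3 against 2 samples allow. The large subunit accounted for 17.6% ± 1.21 in neuroblasts and 8.99% ± 0.264 in neurons, a ratio of 1.95. The small subunit accounted for 10.6% ± 0.901 and 6.01% ± 0.503, a ratio of 1.77. The exact permutation test gave p = 0.1 for each subunit as well, and the groups did not overlap. The share is unaffected by scaling of a whole library.

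Most of these genes lay at similar levels within a replicate. Of the 88 genes, 81 were at 10 FPKM or more in every replicate. The median over the genes above 30 FPKM was 1628, 1468 and 2515 FPKM in the neuroblast replicates and 566 and 554 FPKM in the neurons. The median of the large subunit divided by that of the small was 1.08, 0.816 and 1.03 in neuroblasts and 0.840 and 1.01 in neurons, so neither subunit stood above the other throughout either cell type. RpL41, whose product of 25 residues is the shortest of the ribosomal proteins here, had the highest FPKM of these genes in every replicate, with 13176, 8215 and 17393 FPKM in neuroblasts and 3591 and 3146 FPKM in neurons.

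**Figure D1:**
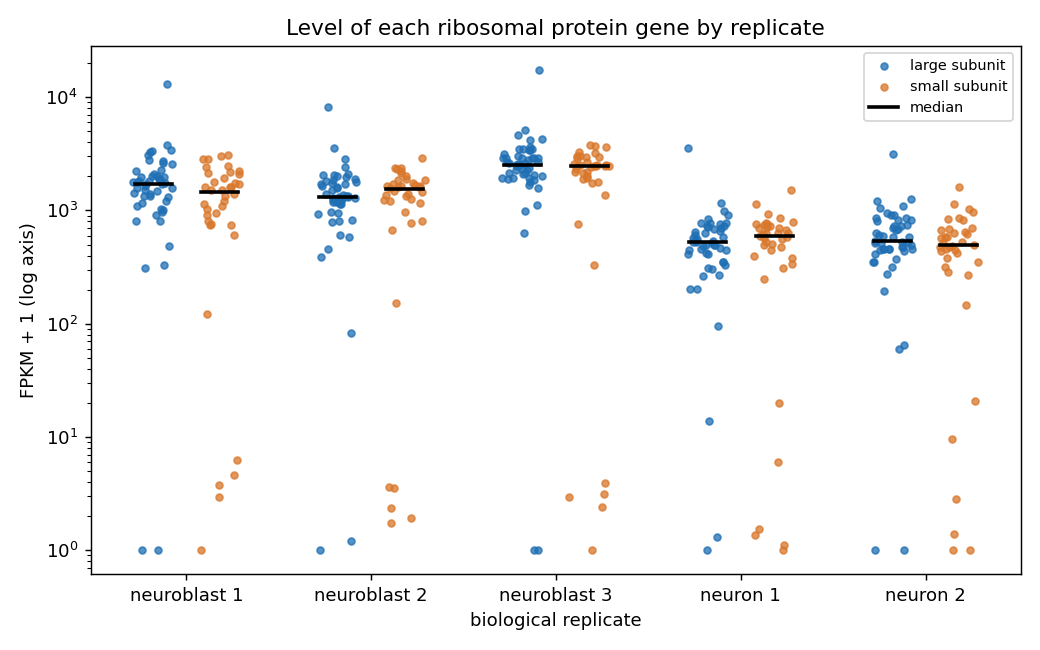
FPKM + 1 (log axis) of each ribosomal protein gene in the 5 biological replicates, with large subunit genes in blue, small subunit genes in orange and black bars at the medians. The dense band of genes lies higher in the 3 neuroblast replicates than in the 2 neuron replicates, and a few genes lie near the bottom in all 5.

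Of the 88 genes, 85 reached at least 1 FPKM in at least 2 replicates and were tested. In a limma fit on log2(FPKM + 1) with Benjamini-Hochberg adjustment over 7975 genes, 76 were higher in neuroblasts, 1 was higher in neurons and 8 were not called. Among all tested genes the neuroblasts were higher in 33.4% and the neurons in 29.9%. The 76 comprise 43 of the 48 tested large subunit genes and 33 of the 37 tested small subunit genes. The small subunit calls include RpS10a and RpS19b, which passed the 1 FPKM filter through the neuroblasts alone. The median log2 fold change, neuroblast over neuron, was 1.69 for the ribosomal protein genes and 0.17 for all tested genes. The median of the large subunit exceeded that of the small by 0.19 on the log2 scale, and without neuron 1 the difference was −0.03. In 80 of the 85 genes every neuroblast replicate was above both neurons, a pattern that 41.8% of all tested genes showed.

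The number of calls rested on having both neurons and on the scale. Without neuron 1, 10 genes were higher in neuroblasts, against 22.4% of all tested genes, and without neuron 2, 13 were, against 21.0%, while the median log2 fold change was 1.66 and 1.63. Each of those fits has a single neuron, which is assumed to vary like the neuroblasts. Only RpL34a, RpS15Ab and RpS19b were called in both, and RpS19b passed the filter on low values through the neuroblasts alone. By the names of their runs, neuroblasts 1 and 2 were sequenced on the flow cell that held neuron 1, and among those 3 replicates alone, again with a single neuron, 18 genes were higher in neuroblasts, against 24.3% of all tested genes, with a median of 1.43. After each library was scaled to the same FPKM sum, 37 genes were higher in neuroblasts, against 21.1% of all genes tested on that scale, and the median was 0.91 beside a median of all genes of −0.58. The distance between these medians was 1.49, against 1.52 without the scaling.

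**Figure D2:**
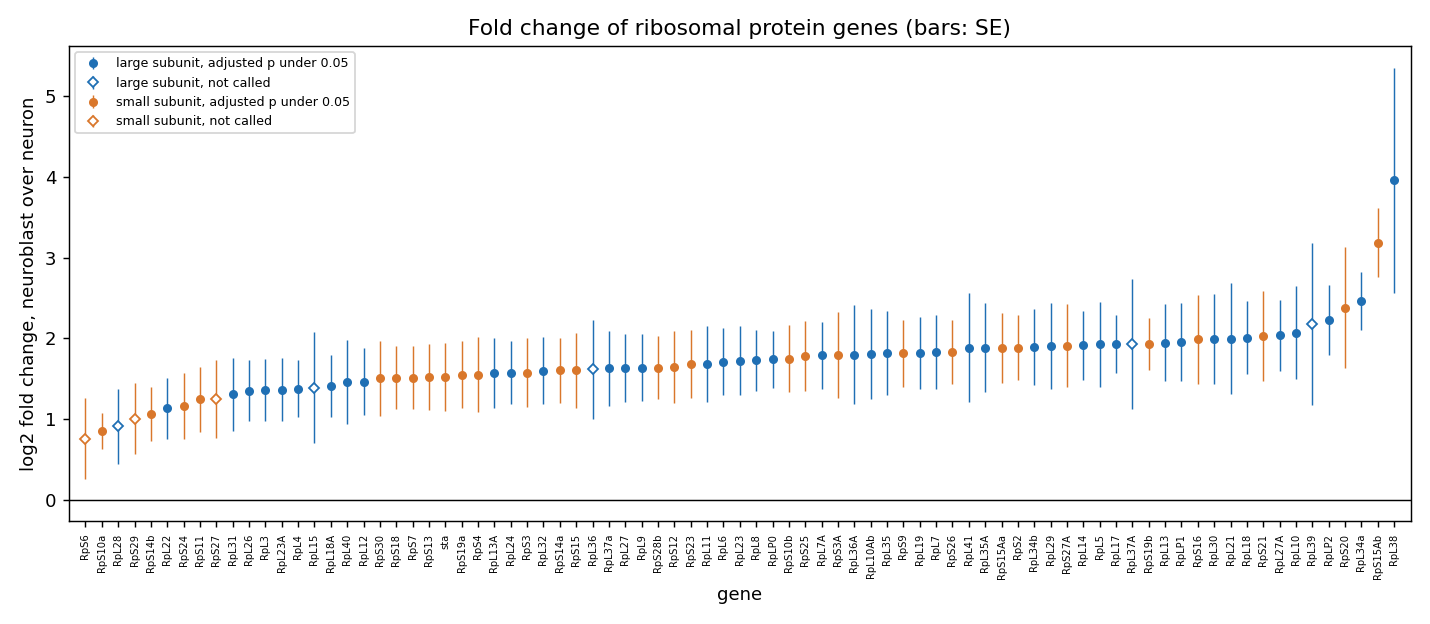
Log2 fold change, neuroblast over neuron, of 81 of the 85 tested ribosomal protein genes in ascending order, with the standard error as a bar, large subunit in blue and small in orange, and open diamonds for the 8 genes not called. All genes shown lie above 0, from 0.76 for RpS6 to 3.96 for RpL38.

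The stalk of the large subunit, which recruits the elongation factors, was higher in neuroblasts in all 3 of its genes. RpLP0, the base of the stalk, stood at 1586, 1177 and 1663 FPKM in neuroblasts and at 419 and 456 FPKM in neurons (log2 fold change 1.74, SE 0.35, limma adjusted p = 0.00477). RpLP1 and RpLP2, the acidic proteins that bind to it, had log2 fold changes of 1.95 and 2.22. RpLP2 was at 2769, 1698 and 2922 FPKM in neuroblasts and 442 and 592 FPKM in neurons, among the 3 largest differences of the called large subunit genes.

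The genes with the highest mean FPKM over the 5 replicates in each subunit included both called and uncalled ones. RpL41 had a log2 fold change of 1.88 (SE 0.68, limma adjusted p = 0.0441). RpL23, the second in the large subunit by mean FPKM, was at 2548, 3547 and 3410 FPKM in neuroblasts and 984 and 917 FPKM in neurons (log2 fold change 1.72). The gene sta, named stubarista for its antennal phenotype, had 3015, 2309 and 2884 FPKM in neuroblasts and 797 and 1130 FPKM in neurons (log2 fold change 1.52). None of these 3 genes overlapped between the cell types. RpL15 and RpS29, also among the highest, were not called. RpL15 was at 2643, 1138 and 5154 FPKM in neuroblasts and at 723 and 1260 FPKM in neurons, and neuroblast 2 lay below neuron 2.

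RpS2, once called string of pearls for its ovary phenotype, was higher in neuroblasts at 2836, 2224 and 2994 FPKM against 634 and 822 FPKM, a log2 fold change of 1.88. RpS21, once called oho23B for the overgrown blood-forming organs of the mutant, was higher by 2.03. RpL10, also known as Qm, was higher by 2.07, with 2240, 1338 and 4600 FPKM in neuroblasts and 514 and 637 FPKM in neurons. RpL40 and RpS27A, which are made as fusions to ubiquitin, were higher by 1.46 and 1.91 on the log2 scale. RpL5 and RpL11, which enter the large subunit together, were higher by 1.92 and 1.68.

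The smallest differences among the called large subunit genes were those of RpL22, RpL31 and RpL26, with log2 fold changes of 1.13, 1.30 and 1.35. Among the called small subunit genes RpS10a, RpS14b and RpS24 had the smallest, 0.85, 1.06 and 1.16. RpS10a averaged 1.57 FPKM in neuroblasts and 0.465 FPKM in neurons, a ratio of 3.37. The log2(FPKM + 1) scale understates changes at such low levels, so its place in this order is uncertain. RpS24 stood at 1327, 1573 and 2177 FPKM in neuroblasts and 852 and 642 FPKM in neurons, which did not overlap.

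The 8 genes that were not called had positive log2 fold changes. RpS29, a small zinc-binding protein of the small subunit, was at 2832, 2888 and 3765 FPKM in neuroblasts and 1516 and 1611 FPKM in neurons (log2 fold change 1.00, SE 0.44, limma adjusted p = 0.0849), with no overlap. RpL28 was at 1566, 1292 and 2275 FPKM against 654 and 1207 FPKM (log2 fold change 0.91, limma adjusted p = 0.126), and the second neuron lay close below the lowest neuroblast. RpS27 and RpL36 missed the threshold narrowly, with log2 fold changes of 1.25 and 1.61 and limma adjusted p-values of 0.0563 and 0.0542. For RpL15, RpL37A and RpL39 the log2 fold changes were 1.39, 1.93 and 2.18, as large as those of many called genes, and their SEs of 0.69, 0.81 and 1.00 were larger.

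RpS6, the small subunit protein phosphorylated by S6 kinase, was listed at 3.58, 0.943 and 2.11 FPKM in neuroblasts and 0.122 and 1.85 FPKM in neurons. These values rest on 10 to 75 fragments a library in neuroblasts and on 1 to 9 in neurons. Its log2 fold change of 0.76 was not called (limma adjusted p = 0.219), and the groups overlapped. The gene lies at X:7793653-7795362 in the coordinates of the tables, which list 2 transcripts for it and a status of OK in all libraries. The protein is essential to the small subunit, and the tables do not show why its gene is listed this low, so its level and fold change are uncertain.

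The 9 pairs of duplicated genes differed in how evenly the copies were used. In 5 of them 1 copy carried nearly all of the pair's FPKM in every replicate, 99.7% or above to 3 digits, namely RpL10Ab, RpL37a, RpS10b, RpS19a and RpS28b. All of these were higher in neuroblasts, with log2 fold changes of 1.80, 1.63, 1.75, 1.54 and 1.64. RpL37a is a gene distinct from RpL37A. The other copies RpL10Aa, RpL37b, RpS28a and RpS10a are single-exon genes in the reference annotation. RpL10Aa was at 0 FPKM in all 8 libraries, and a count of 3 fragments is the limit such a 0 allows. RpL37b had 1 fragment in a library of neuroblast 2 and 1 in a library of neuron 1, and RpS28a had 2 fragments in a library of neuroblast 2 and none elsewhere, so these 3 were not tested.

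RpS19b and RpS10a, also minor copies, were higher in neuroblasts. RpS19b had 5.21, 2.61 and 2.95 FPKM in neuroblasts, from 8 to 78 fragments a library, and 0.353 and 0 FPKM in neurons, from 1, 1 and 0 fragments, with a log2 fold change of 1.93 on the log2(FPKM + 1) scale (limma adjusted p = 0.00224). RpS10a had 1.96, 1.35 and 1.40 FPKM in neuroblasts and 0.537 and 0.393 FPKM in neurons (limma adjusted p = 0.0146). Both lie below 1 FPKM in the neurons, so they passed the filter on the strength of the neuroblasts alone, which leaves little room for the opposite direction. Beside these copies, the germ cell markers vas and aub were at 3.61 ± 0.175 and 12.1 ± 6.33 FPKM in neuroblasts (SD, n = 3) and at 0.157 ± 0.0134 and 0.901 ± 0.0830 FPKM in neurons (SD, n = 2). The marker bam was at 1.94 ± 0.994 and 0.631 ± 0.892 FPKM and was not called, and nos, zpg and ovo stayed below 1 FPKM in every replicate. The summed FPKM of the 6 markers was 13.0 to 26.4 in neuroblasts and 1.25 to 2.87 in neurons. The part of germ cells in these values was not tested.

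In 3 pairs both copies were at 10 FPKM or more in every replicate. RpS15Ab, a single-exon gene, was at 122, 153 and 330 FPKM in neuroblasts and at 19.0 and 19.6 FPKM in neurons (log2 fold change 3.18, SE 0.43, limma adjusted p = 0.00115). Its partner RpS15Aa was at 1203, 1218 and 2343 FPKM against 477 and 350 FPKM, a log2 fold change of 1.88. The share of RpS15Ab in the pair was 9.20%, 11.2% and 12.4% in neuroblasts and 3.83% and 5.30% in neurons, with no overlap. An exact two-sided permutation test of the log2 difference between the copies gave p = 0.1, the smallest possible with these replicates, and 0.3 after Benjamini-Hochberg adjustment over the 9 pairs. The products of both genes have 130 residues in the reference annotation.

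RpL34a was at 329, 390 and 627.5 FPKM in neuroblasts and at 94.1 and 64.0 FPKM in neurons (log2 fold change 2.46, SE 0.36, limma adjusted p = 0.00148). RpL34b was at 1410, 604 and 1119 FPKM against 200 and 351 FPKM, a log2 fold change of 1.89. RpL34a held 18.9%, 39.3% and 35.9% of the pair in neuroblasts and 32.0% and 15.4% in neurons, so the shares of the cell types overlapped, and neuroblast 1 and neuron 2 were the lowest. The exact permutation test of the difference between the copies gave p = 0.5 for this pair and for the RpS14 pair.

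RpS14a and RpS14b lie side by side at X:7827775-7828710 and X:7828931-7829832 in the coordinates of the tables, and their products have the same length of 151 residues. RpS14a was at 737, 667 and 1367 FPKM in neuroblasts and 310 and 267 FPKM in neurons, a log2 fold change of 1.60. RpS14b was at 1085, 805 and 756 FPKM against 392 and 443 FPKM, a log2 fold change of 1.06. RpS14a held 40.4%, 45.3% and 64.4% of the pair in neuroblasts and 44.1% and 37.6% in neurons, and neuroblast 3 was the only replicate in which it was the larger copy. Genes as alike as these may share reads, so the split between the copies of a pair is uncertain.

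**Figure D3:**
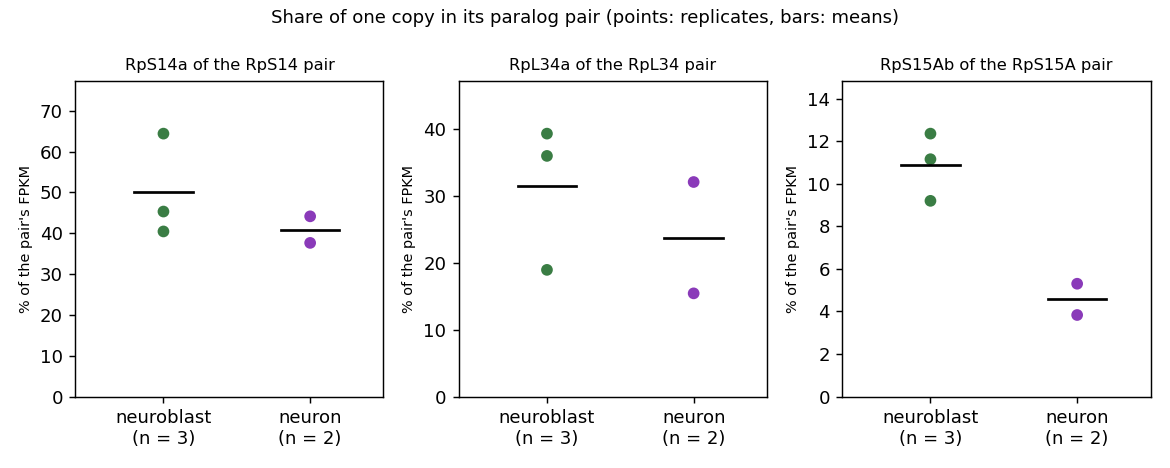
Percent of a pair's FPKM held by RpS14a, RpL34a and RpS15Ab, each in its own panel with its own axis from 0, with a point per replicate and bars at the means of 3 neuroblast and 2 neuron replicates. The cell types overlap for RpS14a and RpL34a and do not overlap for RpS15Ab, which is higher in neuroblasts.

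Replicates of the same cell type differed in which ribosomal protein genes were high. Of the 81 genes at 10 FPKM or more in every replicate, 38 differed by over 2-fold between the highest and the lowest neuroblast replicate and 11 by over 2-fold between the neurons. Neuroblast 3 was the highest neuroblast replicate for 68 of these 81 genes. It also had the highest FPKM sum of all genes and the lowest sum of neuron markers, 10.5 FPKM, and the part of either in the levels was not tested.

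RpL39, which lines the exit tunnel of the large subunit, was at 2711, 456 and 4270 FPKM in neuroblasts and 203 and 727 FPKM in neurons. RpL37A was at 3425, 826 and 2905 FPKM against 268 and 1046 FPKM. In both, neuroblast 2 and neuron 1 were the low replicates, and neuroblast 2 lay between the neurons. RpS20, a protein of the small subunit's head, had the opposite order, with 607, 1272 and 2980 FPKM in neuroblasts and 443 and 144 FPKM in neurons, where neuroblast 1 and neuron 2 were the low ones. RpL36 and RpL36A, both of the large subunit, followed RpS20, with 801, 2105 and 2997 FPKM against 722 and 435 FPKM for RpL36 and 802, 1771 and 2458 FPKM against 690 and 276 FPKM for RpL36A. RpL4 and RpS18, by contrast, varied little, with 1701, 1599 and 1899 FPKM against 639 and 695 FPKM for RpL4 and 2201, 2010 and 2573 FPKM against 727 and 855 FPKM for RpS18. The examples in this paragraph were chosen after their values were seen.

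Across the 81 genes, the log2 difference of neuroblast 1 over neuroblast 2 and that of neuron 2 over neuron 1 had a Pearson r of 0.896 and a Spearman rho of 0.871, and 68 of the 81 genes had the same sign in both. This is a description across genes, which are not independent replicates, and the 4 replicates in it share no library. The other 3186 genes at 10 FPKM or more everywhere gave r = 0.816 and rho = 0.762, so the pattern was also present in genes of other kinds. Neuroblasts 1 and 2, which differ in this way, were on the same flow cell, and the cause of the pattern was not tested.

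**Figure D4:**
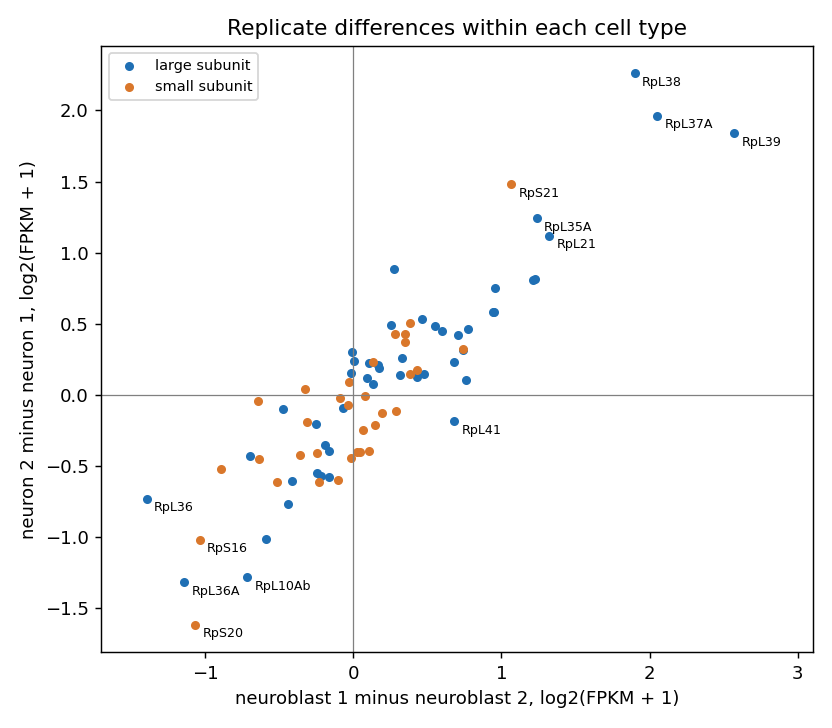
Difference between neuroblast 1 and neuroblast 2 (horizontal) and between neuron 2 and neuron 1 (vertical), both in log2(FPKM + 1), for the 81 ribosomal protein genes at 10 FPKM or more in every replicate, coloured by subunit. The points follow a rising diagonal with r = 0.896, with RpL39, RpL37A and RpL38 at the upper right and RpS20, RpL36 and RpL36A at the lower left.

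RpL38 had the largest fold change and the widest spread. This protein of the large subunit, whose loss in mouse alters the translation of Hox mRNAs, was at 311, 82.6 and 2906 FPKM in neuroblasts and at 12.8 and 58.6 FPKM in neurons. Its log2 fold change was 3.96 (SE 1.40, limma adjusted p = 0.0417), and the lowest neuroblast, at 82.6 FPKM, lay just above the highest neuron, at 58.6 FPKM. The libraries of neuroblast 3 held 12356 and 36011 fragments of it, that of neuroblast 1 held 482, those of neuroblast 2 held 100 and 86, and those of the neurons held 18, 5 and 54. The call was lost without neuroblast 3, where the log2 fold change was 2.57 (limma adjusted p = 0.0625), without neuron 1, where it was 2.83 (adjusted p = 0.253 by limma), and without neuron 2, where it was 5.09 (adjusted p = 0.0753 by limma). The authors' deposited table gives RpL38 a log2 fold of 5.32, the largest of the ribosomal protein genes in it.

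**Figure D5:**
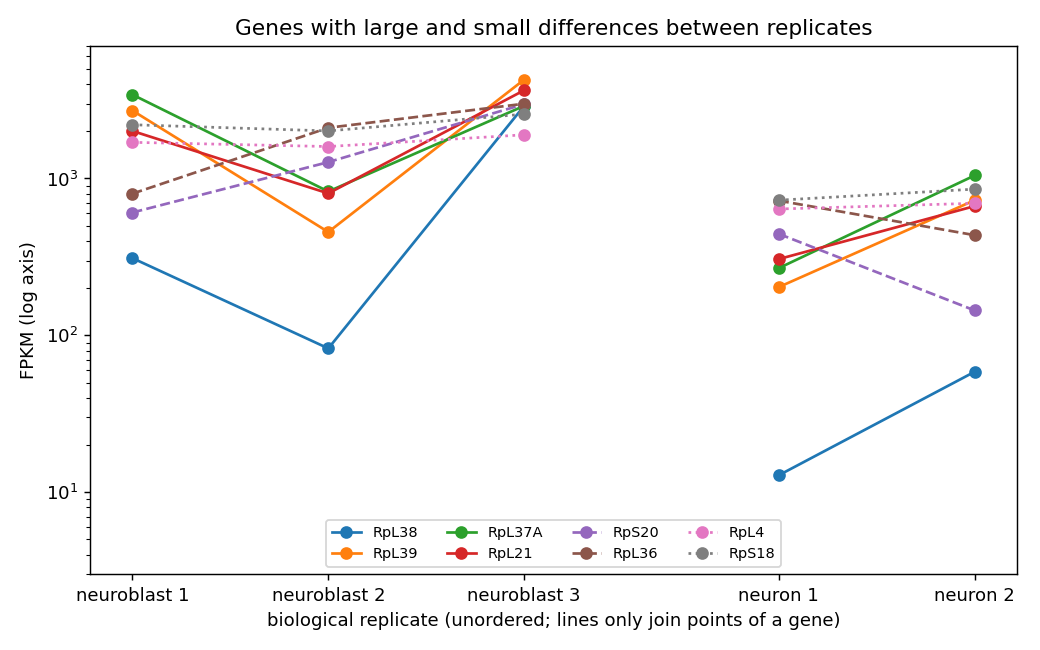
FPKM (log axis) in the 5 biological replicates of RpL38, RpL39, RpL37A and RpL21 (solid), RpS20 and RpL36 (dashed) and RpL4 and RpS18 (dotted), with lines that only join the points of a gene. The solid genes are low in neuroblast 2 and neuron 1, the dashed genes are low in neuroblast 1 and neuron 2, and RpL38 spans 12.8 to 2906 FPKM.

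Medians of the fold change were close to each other over the features compared. In the reference annotation 29 of the genes host 76 small nucleolar RNAs, counted as those within the gene on the same strand. RpS7 hosts 7 of these. The tested hosts had a median log2 fold change of 1.57 and were called higher in neuroblasts in 25 of 29 cases, and the 56 genes without such an RNA had a median of 1.72 and 51 calls. The genes are spread over the genome, with 17 on 2L, 19 on 2R, 13 on 3L, 22 on 3R, 15 on X and 1 each on 4 and 3LHet. The median log2 fold change was 1.91 for 2L, 1.70 for 2R, 1.73 for 3L, 1.57 for 3R and 1.61 for X. For 25 genes another gene overlaps on the opposite strand, and since no source used here says whether counting used the strand, their values are uncertain. These 25 had a median log2 fold change of 1.64 and the other 60 a median of 1.70.

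The authors' deposited table, which holds 3532 genes and gives a mean for each cell type, lists 35 of the ribosomal protein genes, 22 of the large and 13 of the small subunit. All 35 are listed as higher in neuroblasts, as are 1702 of the 3532 genes in the authors' deposited table. Those 1702 are 12.0% of the 14210 genes measured, beside 35 of the 88 ribosomal protein genes. The log2 folds of the 35 in the authors' deposited table run from 1.49 for RpS12 to 5.32 for RpL38, with a median of 1.76. Of the 76 genes called higher in neuroblasts by limma 32 are in the authors' deposited table, as are RpL15, RpL37A and RpL39, which limma did not call. The limits differ, since the authors' deposited table holds genes with an adjusted p up to 0.00995 on normalized counts. The limma calls used an adjusted p under 0.05 on log2(FPKM + 1), so absence from the authors' deposited table does not show disagreement. RpS15Ab has a log2 fold of 3.34 in the authors' deposited table, where its mean is 1398 in neuroblasts and 138 in neurons. RpS19b and RpS10a are not among the genes it lists.

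Genes with neighbouring roles were compared in the same fit. Of 72 mitochondrial ribosomal protein genes, which serve the separate ribosome of that organelle, 68 were higher in neuroblasts and 0 higher in neurons, with a median log2 fold change of 2.20, against 1.69 for the cytosolic genes. After scaling to equal FPKM sums these medians were 1.47 and 0.91. Their summed level was far lower, at 3715 to 6205 FPKM in neuroblasts and 955 to 978 FPKM in neurons. Of 20 genes of ribosome assembly and RNA polymerase I, 19 were higher in neuroblasts, with a median of 2.79, and the exception was Tif-IA, an initiation factor of that polymerase, with a log2 fold change of 1.40 (limma adjusted p = 0.0894). The difference between these lists and the cytosolic genes was not tested.

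Of 25 translation factors 15 were higher in neuroblasts and 1 was higher in neurons, with a median log2 fold change of 1.27, beside 33.4% and 29.9% of all tested genes. After scaling to equal FPKM sums the median was 0.50, with 9 calls toward neuroblasts and 2 toward neurons. On that scale 1720 of all 8134 tested genes were called toward neuroblasts and 3598 toward neurons. Ef1beta, an exchange factor for the elongation factor, was at 780 ± 259 FPKM in neuroblasts (SD, n = 3) and 134 ± 4.64 FPKM in neurons (SD, n = 2). Ef1alpha100E, an elongation factor gene, was the exception, at 52.5, 21.2 and 5.52 FPKM in neuroblasts and 349 and 507 FPKM in neurons, a log2 fold change of −4.41 (limma adjusted p = 0.00286). Its levels in the neuroblast replicates have the order of the neuron marker sums, 85.5, 47.2 and 10.5 FPKM, and the part of neurons in them was not tested. The 3 tested relatives of ribosomal proteins outside the naming rule were higher in neuroblasts. Of these, RpLP0-like and RpL24-like were also counted in the list of ribosome assembly and RNA polymerase I. RpLP0-like, whose yeast counterpart acts in ribosome assembly, was at 96.4 ± 13.2 FPKM in neuroblasts and 4.44 ± 0.422 FPKM in neurons, a log2 fold change of 4.16 (limma adjusted p = 0.000219). RpL7-like and RpL24-like had log2 fold changes of 2.46 and 1.80, and RpL22-like, known from the germline, was at or below 0.120 FPKM everywhere. Of 8 growth genes linked to the ribosome only Thor, the inhibitor of the cap-binding factor eIF4E, was called, with 44.4 ± 9.62 FPKM in neuroblasts and 19.1 ± 4.42 FPKM in neurons, and the median of the list was −0.09. After scaling to equal FPKM sums the call on Thor was lost, 4 of the genes were called toward neurons, and the median was −0.83. For all genes tested on that scale the median was −0.58, and 3598 of 8134 were called toward neurons.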

How the data were processed

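PolyA-selected RNA of sorted cells was sequenced from dUTP strand-marked libraries, per the labels' protocols. The submitters' processing notes name DESeq 1.8.3, HTSeq, Cufflinks 1.3.0, TopHat 1.4.1 and BWA 0.6.1 without their roles or order. Each library's table gives an FPKM per gene with its interval and status from Cufflinks, per the file headers. The authors' deposited comparison table holds mean signal (normalized counts) of each cell type, their fold (ratio), its log2 and p-values, per the file headers, with adjusted p up to 0.00995. It names neuron as the first and neuroblast as the second condition in every row. The sources used here do not give the genome build or the counting parameters. Positions follow the tables, counted from 1. An annotation of a different build (release 115) supplied lengths, exons, hosted small nucleolar RNAs and overlapping genes, with 83 of the 88 genes matched by identifier and 5 by symbol.

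The technical replicates were averaged, on the log2 scale for fits and in FPKM for levels, which left 3 neuroblast and 2 neuron replicates. R 4.3.3 and limma 3.58.1 gave the two-sided test, with a prior variance that follows the mean of log2(FPKM + 1). It covered the 7975 genes that reached 1 FPKM in 2 or more replicates, with Benjamini-Hochberg adjustment and a threshold of 0.05. Fold changes on this scale understate the change of low genes. The script was tested on simulated data. Fragments behind a value were read from the Cufflinks interval and were whole numbers, to within 0.05, for 91.0% to 91.6% of the values of single-transcript genes. Exact permutation tests ran over the 5 replicates in Python 3.11.15 with numpy 2.4.6, pandas 2.3.3 and scipy 1.17.1, and figures were drawn with matplotlib 3.10.9. The genes and lists were chosen with earlier results of these data known. The genes named are both copies of every pair, those called toward neurons, not called or not tested, the stalk genes, RpS6, the 4 genes of the older names, and in each subunit the 3 highest by mean FPKM and the 3 largest and 3 smallest called differences. Other genes named were chosen for their role or after their values were seen. In other lists the rule allows the 3 genes of smallest adjusted p and any that go against the majority. In all, 19 alternatives were tried. A few of the genes are counted but not reported by name here or shown in the plot of fold changes. No promoter or protein sequence was analysed here.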

Additional observations from a re-analysis of the deposited data

How the results depend on the processing

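The median log2 fold change of the ribosomal protein genes was above 0 under all 19 alternatives and ran from 0.55 to 1.83. It was 1.30 with upper quartile scaling, 0.55 with quantile normalization, 1.15 with scaling to the sum of the other genes and 0.91 with scaling to the sum of all genes, a scaling chosen after seeing the data, against 1.69 as reported. The count of genes higher in neuroblasts, 76 as reported, was 9 with quantile normalization, 37 with scaling to the sum of all genes and 18 among the replicates on the shared flow cell. It ran from 10 to 69 when a replicate was left out, and fell to 10 and 13 only without neuron 1 and neuron 2. The count higher in neurons was 0 on the shared flow cell and 0 to 1 when a replicate was left out. RpL28, RpL31, RpS24 and RpL4 turned to −0.39, −0.012, −0.20 and −0.014 with quantile normalization. In that setting 2525 of all 7975 tested genes were higher in neuroblasts, against 9 of the 85 ribosomal protein genes. The share called was thus lower among the ribosomal protein genes there, although their median of 0.55 lay above the 0.012 of all genes. The log2 difference between RpL34a and RpL34b, neuroblast minus neuron, ran from −0.11 without neuron 2 to 1.25 without neuron 1. The causes of these differences were not tested, and fits that left out a replicate also had fewer samples. Over the genes named by rule, which leave out RpL4, 509 of the alternative values kept their direction and side of the threshold, 167 lost and 21 gained the call, and 3 reversed.

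Replicates that share a number did not deviate together: across the 81 genes at 10 FPKM or more the differences of the same-numbered replicates had r = −0.896. With the replicate block 6 genes were higher in neuroblasts and 1 higher in neurons, beside 2047 and 1977 of all 7975 tested genes. With the crossed pairing, added after seeing the data, 84 were higher in neuroblasts and 1 in neurons. For all tested genes the crossed pairing gave 3258 and 3001. Depth limits RpS6, RpS10a and RpS19b, whose libraries held from 0 to 78 fragments.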
